A study of Homo sapiens with 21 samples.

Results

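The genes described are 10 that encode proteins of neutrophil granules: MPO, ELANE, AZU1, PRTN3, CTSG, LYZ, RNASE2, RNASE3, PRSS57 and LTF. They were chosen by symbol, and each had a row in both deposited count tables, so they are 10 of 28008 genes. Messenger RNA was sequenced from OCI-AML3, a line from an acute myeloid leukaemia, and from K562, which was derived from a chronic myeloid leukaemia in its blast phase. There were 21 libraries in 7 groups of 3, spread over 2 sequencing batches. In batch 1 the groups were OCI-AML3 labelled StAMP resistant (biological replicate 1, called resistant 1), untreated K562, OCI-AML3 kept in DMSO (vehicle) and untreated OCI-AML3 (parental). In batch 2 they were OCI-AML3 labelled StAMP resistant from biological replicate 2 (resistant 2), resistant 1 again, and OCI-AML3 in DMSO. The labels give all 7 groups a wild-type genotype, and they do not spell out StAMP, its dose or how resistant cells were selected. K562 was sequenced in batch 1 only.

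Neutrophil granules are made in order while a granulocyte matures. Azurophil (primary) granules form at the promyelocyte stage and store myeloperoxidase, the serine proteases elastase (ELANE), proteinase 3 (PRTN3), cathepsin G (CTSG) and neutrophil serine protease 4 (PRSS57), and the enzymatically inactive azurocidin (AZU1). Lysozyme (LYZ) is stored in several granule types and is also made by monocytes. Lactoferrin (LTF) belongs to the later, specific granules. RNASE2 and RNASE3 encode ribonucleases best known from eosinophil granules, and RNASE2 is also expressed in neutrophils and monocytes. Transcription of azurophil granule genes is driven in myeloid progenitors by factors such as PU.1 (the product of SPI1), C/EBP proteins, RUNX1 and MYB.

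The profiles were of 2 kinds, and the 9 libraries labelled resistant went against their cell-line label. Over 11943 genes, the Pearson correlation of log2(CPM + 1), where CPM is the count per mega count of the TMM-scaled library, was 0.980 to 0.982 between resistant 1 and K562 in batch 1, and 0.587 to 0.590 between resistant 1 and vehicle. In batch 2, resistant 1 had 0.624 to 0.644 with vehicle. Summed erythroid markers were 5760 to 6122 CPM in resistant 1 and 5836 to 5970 CPM in K562, with counts for 18 of 18 in each. They were 29.8 to 32.1 CPM in vehicle (10 of 18 with counts) and 20.1 to 23.4 CPM in parental libraries (9 of 18). In batch 2 they were 1389 to 1947 CPM in resistant 2, 2084 to 2250 CPM in resistant 1 and 13.7 to 18.8 CPM in vehicle. RHAG and HEMGN had 0 counts in all vehicle and parental libraries. Of the myeloid markers of OCI-AML3 in batch 1, SPI1 was 18.9 to 22.4 CPM in resistant 1 against 173 to 177 CPM in vehicle, and CSF3R 0.203 to 0.268 CPM in resistant 1 against 70.8 to 75.5 CPM in vehicle. CSF1R was 0 to 0.107 CPM in resistant 1 against 10.7 to 12.8 CPM in vehicle, and CD14 0.107 to 0.237 CPM in resistant 1 against 7.83 to 9.56 CPM in vehicle. ITGAM, which encodes an integrin subunit of myeloid cells, stood the other way, at 4.32 to 4.61 CPM in resistant 1 against 1.77 to 2.52 CPM in vehicle. Total counts were 14.07 to 21.09 M (mega counts) per library in batch 1 and 30.72 to 51.26 M in batch 2. The results below name these libraries by their labels, and what the labels mean for them was not tested.

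By position, 4 of the 10 genes lie near one end of chromosome 19 (hg38, GENCODE): PRSS57 at chr19:685546-695498 on the minus strand, then AZU1 at chr19:825097-832018, PRTN3 at chr19:840999-848175 and ELANE at chr19:851014-856247 on the plus strand. AZU1 and PRTN3 are 8980 bases apart, and PRTN3 and ELANE 2838 bases. PRSS57 lies 129598 bases from AZU1. RNASE3 (chr14:20891385-20892348) and RNASE2 (chr14:20955487-20956436) are neighbours on the plus strand, 63138 bases apart, and CTSG (chr14:24573518-24576250, minus strand) is on the same chromosome. MPO is at chr17:58269855-58280935 and LTF at chr3:46435645-46485234, both on the minus strand, and LYZ is at chr12:69348381-69354234 on the plus strand.

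The 150 bases before the transcription start are shown for 6 genes, because the neighbours on chromosomes 19 and 14 were all lower in the libraries labelled resistant than in vehicle while PRSS57 was higher, and because RNASE2 and RNASE3 share much of their upstream sequence but had unlike levels. Sequences are from RefSeq on GRCh38.p14, written on the gene's strand, and 7 of the 10 genes matched an entry. ELANE, MPO and LYZ did not match one, and LTF, which matched at 3 starts, is not shown. The starts are RefSeq's: those of AZU1 and PRSS57 lie inside the GENCODE gene bounds given above, so these windows overlap the annotated genes, while the other 4 windows end just before the GENCODE start. Capitals mark matches, on either strand, to a PU.1 (ETS) core AGGAAG, a RUNX core TGTGGT, a pair of C/EBP half-sites TTNNGNAA and a GATA core AGATAA. The windows are chr14:24576251-24576400 (CTSG, minus), chr19:827687-827836 (AZU1, plus), chr19:840849-840998 (PRTN3, plus), chr14:20955337-20955486 (RNASE2, plus), chr14:20891235-20891384 (RNASE3, plus) and chr19:695453-695602 (PRSS57, minus).
CTSG: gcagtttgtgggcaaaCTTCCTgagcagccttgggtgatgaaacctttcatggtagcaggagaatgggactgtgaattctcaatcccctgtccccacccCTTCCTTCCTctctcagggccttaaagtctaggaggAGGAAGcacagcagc
AZU1: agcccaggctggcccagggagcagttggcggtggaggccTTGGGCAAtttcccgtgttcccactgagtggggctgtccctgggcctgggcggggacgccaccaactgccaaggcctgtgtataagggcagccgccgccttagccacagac
PRTN3: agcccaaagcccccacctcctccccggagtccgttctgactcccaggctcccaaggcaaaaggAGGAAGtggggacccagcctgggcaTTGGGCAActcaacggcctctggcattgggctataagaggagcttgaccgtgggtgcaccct
RNASE2: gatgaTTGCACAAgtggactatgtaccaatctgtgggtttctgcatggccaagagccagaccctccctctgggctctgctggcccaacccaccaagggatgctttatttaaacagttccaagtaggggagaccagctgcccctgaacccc
RNASE3: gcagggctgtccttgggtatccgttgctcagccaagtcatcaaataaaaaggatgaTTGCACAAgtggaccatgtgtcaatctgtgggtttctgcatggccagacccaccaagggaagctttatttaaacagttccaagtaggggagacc
PRSS57: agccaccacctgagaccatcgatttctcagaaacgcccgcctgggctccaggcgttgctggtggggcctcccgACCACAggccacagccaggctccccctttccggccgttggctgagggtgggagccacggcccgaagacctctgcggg
The CTSG window held 4 matches to the PU.1 core, which 18.8% of 35116 windows of the same length before RefSeq genes hold at least once. PRTN3 held 1 such match and also 1 match to the C/EBP pair, whose background is 20.0%. AZU1, RNASE2 and RNASE3 each held 1 C/EBP match and no PU.1 match. The PRSS57 window held 1 RUNX match, against a background of 6.6%, and none of the other cores marked. None of these 6 windows held the GATA core, which 5.2% of windows hold. The MYB core AACNG occurs in 52.1% of windows and in all 6 of these, so it is not marked. LTF, also higher in the libraries labelled resistant, has 3 windows that are not shown. Start 1 held 1 PU.1 and 1 C/EBP match, start 2 held 1 C/EBP match, and start 3 held 3 PU.1 matches and 1 RUNX match. Neighbouring PU.1 matches may overlap, as 2 of the 4 in CTSG do, and a match is letters only. In the 250 bases before the start, RNASE2 and RNASE3 had 192 identical bases of 199 aligned (96.5%), with 102 gap columns. Their longest transcripts were 88.8% identical over 717 aligned bases.

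Vehicle and parental OCI-AML3 expressed 7 of the 10 genes at more than 10 CPM and the remaining 3, MPO, PRSS57 and LTF, at under 2 CPM. Levels between genes are given as CPM per kilobase of annotated exon. In vehicle of batch 1, CTSG came first at 1065 to 1144 CPM per kb, followed by RNASE2 (245 to 257), LYZ (230 to 237), ELANE (182 to 193), PRTN3 (135 to 146), AZU1 (130 to 143) and RNASE3 (16.8 to 18.5). The ranges of PRTN3 and AZU1 overlapped, and those of the other neighbours in this order down to MPO (0.308 to 0.366) did not. The parental order differed in LYZ, which was second at 493 to 522 CPM per kb, and in AZU1 (98.2 to 140) standing above PRTN3 (67.6 to 72.7). Vehicle of batch 2 had the order CTSG, RNASE2, LYZ, ELANE, AZU1, PRTN3 and RNASE3, with no overlap between those neighbours. MPO, which encodes the enzyme most used to identify myeloid blasts, had 29, 31 and 20 counts in vehicle and 20, 23 and 27 in parental libraries of batch 1, and 15, 27 and 13 in vehicle of batch 2. So its level per kb was below that of RNASE3 in all 9 of these libraries. LTF had 0 counts in all 9.

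RNASE2 exceeded RNASE3 per kb by a ratio of 14.1 ± 1.06 in vehicle and 10.5 ± 0.665 in parental libraries of batch 1, and 10.9 ± 1.12 in vehicle of batch 2 (SD, n = 3 each). RNASE2 shares 18.2% of its 50-base stretches with other annotated genes, mostly the pseudogene RNASE2CP, whose older symbol ECRP is a row of both tables, and RNASE3 shares 5.26%. ECRP itself averaged 22.9 CPM in vehicle and 22.4 CPM in parental libraries of batch 1. How reads that fit more than 1 of them were counted is not stated, so the split between these 3 genes is uncertain.

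Together the 10 genes took 0.254 to 0.267% of all counts in vehicle and 0.270 to 0.295% in parental libraries of batch 1, and 0.143 to 0.160% in vehicle of batch 2. In resistant 1 of batch 1 they took 0.00519 to 0.00576%, and in K562 0.00279 to 0.00295%. In batch 2 they took 0.0103 to 0.0109% in resistant 2 and 0.0126 to 0.0142% in resistant 1. What those counts were also differed. LYZ made up 92.0 to 95.3% of the members' counts in resistant 1 of batch 1, 90.1 to 96.5% in K562, 94.2 to 96.9% in resistant 2 and 91.9 to 93.9% in resistant 1 of batch 2. It made up 14.4 to 15.4% in vehicle and 28.7 to 32.5% in parental libraries of batch 1, and 15.0 to 16.6% in vehicle of batch 2. CTSG made up 55.6 to 56.7%, 42.7 to 43.6% and 62.2 to 63.7% of them in those last 3 groups, in that order.

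**Figure D1:**
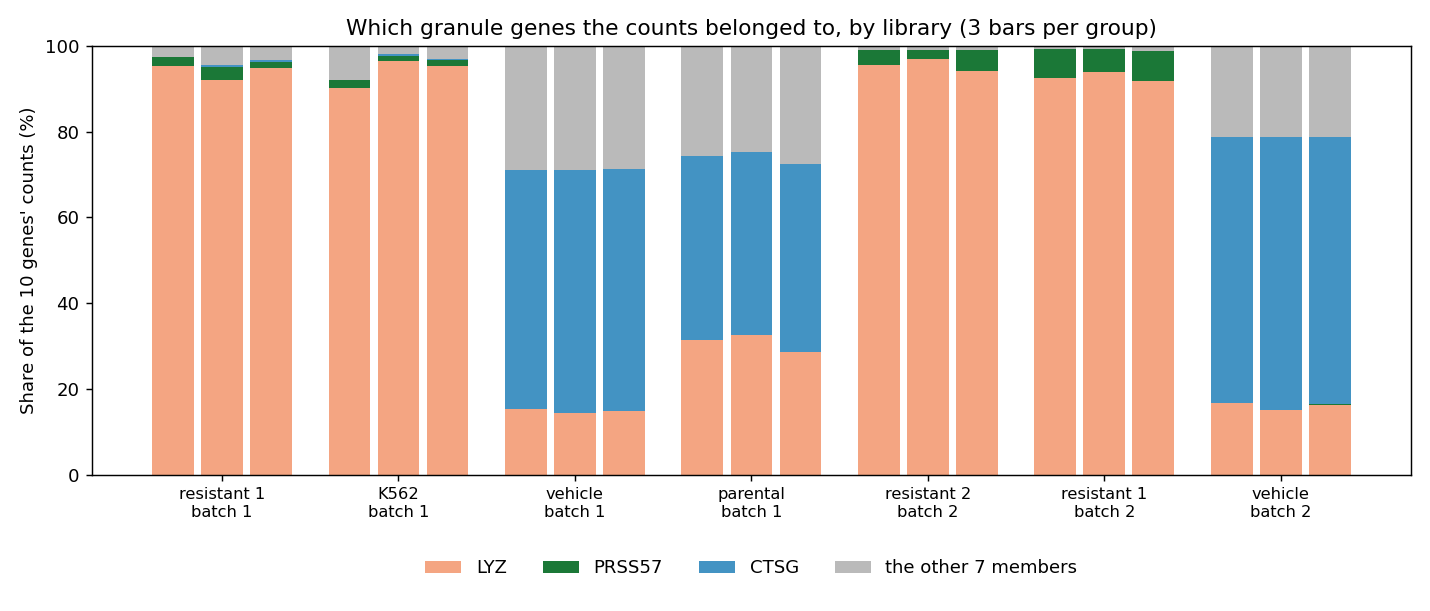
Share of the 10 genes' summed counts (%) that belonged to LYZ, PRSS57, CTSG and the other 7, with 1 bar per library and 3 per group. In all 9 libraries labelled resistant LYZ takes at least 91.9%, while in vehicle libraries CTSG takes at least 55.6%.

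The first comparison, resistant 1 against vehicle in batch 1, sets cells labelled resistant against cells kept in the solvent. Of the 10 genes, 9 passed the low-count filter and LTF did not. Among the 9, 8 were lower in resistant 1 (AZU1, CTSG, ELANE, LYZ, MPO, PRTN3, RNASE2 and RNASE3) and PRSS57 was higher, with edgeR's quasi-likelihood test and Benjamini-Hochberg adjustment over 14505 genes. The background was high: 42.1% of all genes tested were called lower and 44.0% higher. The median log2 fold change of the 9 was -8.14, against 0.02 over all genes tested. Without LYZ, PRSS57 and LTF, the summed level of the other 7 was 0.0736% of vehicle, 0.0534 to 0.09999% over libraries. Erythroid markers were all higher in these libraries (18 of 18) and monocyte markers mostly lower (13 of 14, summed 51.3 to 55.4 CPM in resistant 1 against 856 to 860 CPM in vehicle, with CD163 among those at 0 in resistant 1). The remaining monocyte marker, ITGAM, was higher (1.16 ± 0.18 on the log2 scale, adjusted p = 8.51e-07). Their part in the result was not tested. In bulk RNA, fewer cells expressing a gene and less RNA per cell cannot be told apart.

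Among the serine proteases, CTSG had 0, 5 and 4 counts in the resistant 1 libraries, against 26062, 31884 and 22715 counts in vehicle. Every vehicle library stood more than 3 orders of magnitude above every resistant 1 library, and the fold change was -13.04 ± 0.13 on the log2 scale (SE, adjusted p = 3.99e-30). Leaving out single libraries gave -13.58 to -12.37, a wider range than that SE. ELANE had 0, 3 and 0 counts in resistant 1 against 3350, 3953 and 2904 in vehicle. All 3 of the resistant 1 counts came from 1 library, and the ratio of vehicle to resistant 1 was 3509, with an exact 95% counting interval of 1200 to 17017 (adjusted p = 4.82e-28). PRTN3 had 8, 15 and 5 counts in resistant 1 against 2665, 3099 and 2363 in vehicle, a log2 fold change of -8.14 ± 0.12 (adjusted p = 1.54e-28). AZU1, its neighbour, had 14, 17 and 12 counts in resistant 1 against 4144, 5189 and 3447 in vehicle, a log2 fold change of -8.17 ± 0.19 (adjusted p = 1.91e-14). The residual was thus 0.329% of vehicle for PRTN3 and 0.331% for AZU1, against 0.0278% for ELANE, the nearer neighbour of PRTN3, and 0.0118% for CTSG. AZU1 shares 4.66% of its 50-base stretches with other genes, and PRTN3 and CTSG share 0.

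MPO had 3, 1 and 1 counts in resistant 1 against 29, 31 and 20 counts in vehicle. The groups did not overlap, and the log2 fold change was -3.87 ± 0.45 (adjusted p = 1.07e-08). For the ribonucleases, RNASE2 had 1, 0 and 1 counts in resistant 1 against 3153, 3768 and 2624 in vehicle, a ratio of vehicle to resistant 1 of 4922 (interval 1362 to 40647). RNASE3 had 0, 2 and 0 counts in resistant 1 against 243, 251 and 193 in vehicle, a ratio of 354 (97.7 to 2931). At these depths neither gene could be told from a count of 0 in several resistant 1 libraries.

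LYZ, which encodes the wall-cleaving enzyme lysozyme, kept the most. It had 52.3, 45.2 and 49.1 CPM in resistant 1 against 403, 397 and 408 CPM in vehicle. The groups were far apart and each was tight, and the log2 fold change was -2.97 ± 0.05 (adjusted p = 1.45e-26), which left 12.1% of the vehicle level. LYZ shares 8.60% of its 50-base stretches with other loci and overlaps an antisense long noncoding RNA. The kit was strand-specific, but the strand setting of the counting is not stated.

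PRSS57, the member of the chromosome 19 group that lies farthest out, went the other way. It had 23, 27 and 10 counts in resistant 1 against 1, 1 and 0 counts in vehicle. No vehicle library came near a resistant 1 library, and the ratio was 29.1, with an exact 95% counting interval of 7.71 to 246 (adjusted p = 1.92e-07). The level was nevertheless low, 1.07 ± 0.387 CPM in resistant 1 and 0.0350 ± 0.0305 CPM in vehicle (SD, n = 3 each). PRSS57 overlaps the processed pseudogene RPS2P52 on the opposite strand. LTF had 5, 3 and 6 counts in resistant 1 and 0 in each vehicle library, so it was at least 4.53-fold higher against 3 counts over the vehicle group, with no test because of the filter.

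**Figure D2:**
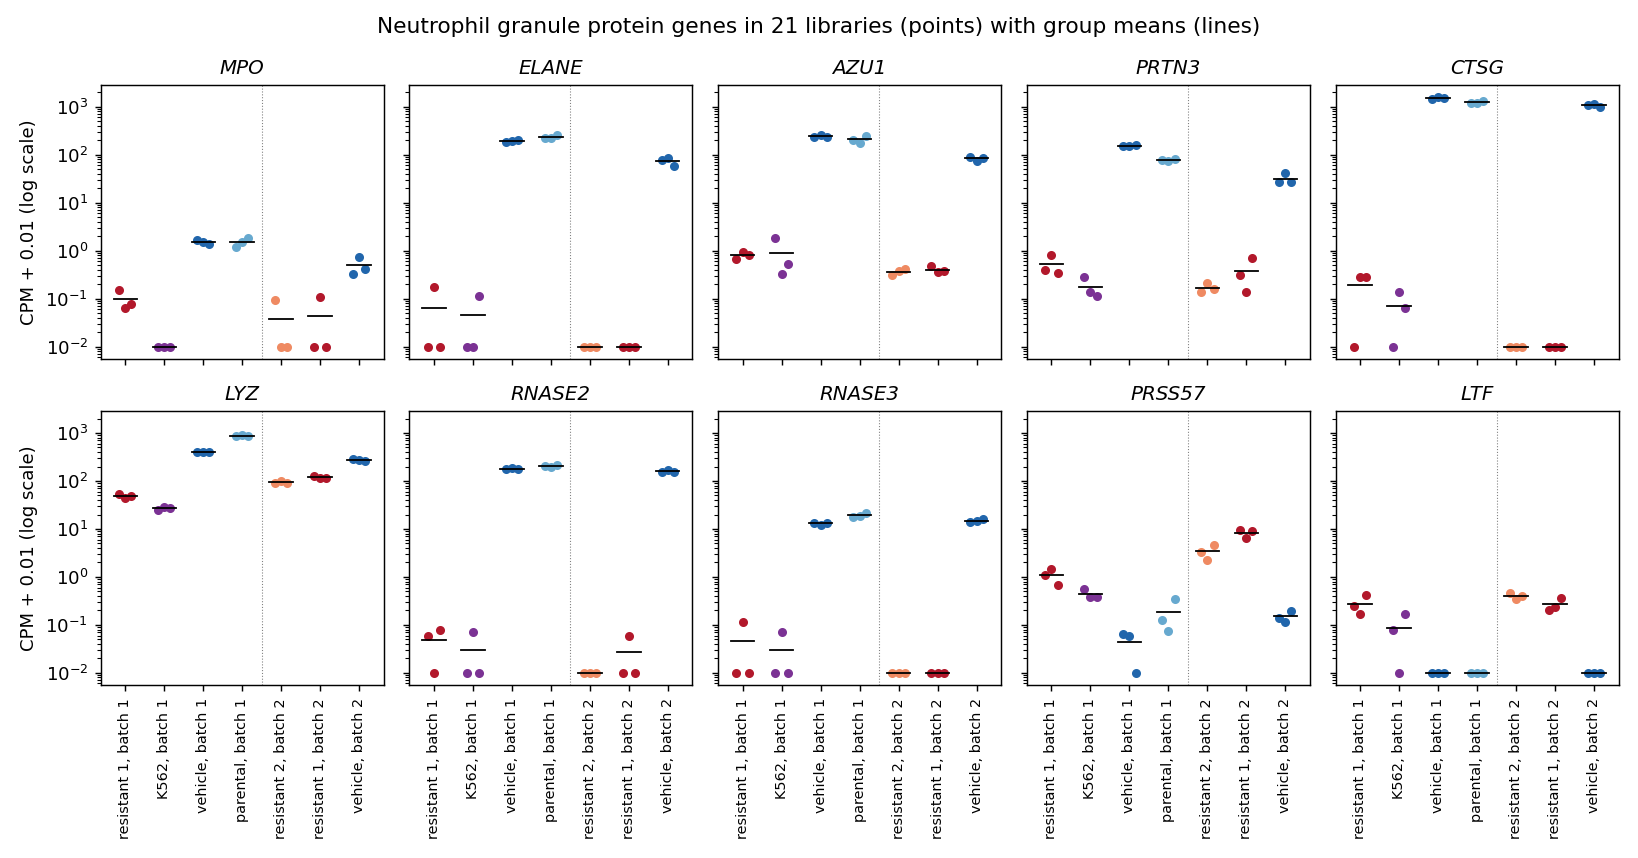
Level of each gene (CPM plus 0.01, log axis) in every library (points) with group means (lines); the dotted line divides the sequencing batches. In 8 panels the vehicle and parental points lie above all resistant and K562 points, and in PRSS57 and LTF all resistant points lie above them.

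In batch 2, resistant 2 and resistant 1 were each compared with the same 3 vehicle libraries, so the results are not independent of each other. All 10 genes were tested. In each comparison the same 8 genes as in batch 1 were lower, and PRSS57 and LTF were higher (edgeR's quasi-likelihood test with Benjamini-Hochberg adjustment over 15218 genes). For resistant 2, 35.9% of all genes tested were called lower and 40.2% higher, and for resistant 1, 35.8% lower and 39.9% higher. The median log2 fold change of the 10 was -7.74 for resistant 2 and -7.10 for resistant 1, against 0.07 for each over all genes tested. Erythroid markers were again higher, 18 of 18 in each comparison, and monocyte markers lower, 13 of 14 in each. ITGAM was again higher, at 5.06 CPM in resistant 2 and 15.6 CPM in resistant 1 against 2.84 CPM in vehicle. The part of these markers was not tested. The 7 genes without LYZ, PRSS57 and LTF summed to 0.0377% of vehicle in resistant 2 and to 0.0566% in resistant 1.

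At the greater depth of batch 2, CTSG, ELANE and RNASE3 had 0 counts in all 6 libraries labelled resistant. Vehicle had 49669, 42994 and 32349 counts of CTSG, which made it at least 49698-fold lower in resistant 2 and at least 43524-fold lower in resistant 1, against 3 counts over each group. ELANE, with 3621, 3145 and 1839 counts in vehicle, was at least 3421-fold lower in resistant 2 and at least 2996-fold lower in resistant 1. RNASE3, with 656, 542 and 524 counts in vehicle, was at least 685-fold and at least 600-fold lower in those groups, in that order. RNASE2 had 0 counts in each resistant 2 library, 0, 2 and 0 in resistant 1, and 7261, 6246 and 4942 in vehicle.

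A residue of the other genes could be counted. AZU1 had 14, 16 and 19 counts in resistant 2 and 24, 14 and 11 in resistant 1, against 4133, 2835 and 2793 in vehicle. The groups labelled resistant overlapped each other and were far below vehicle, with log2 fold changes of -7.88 ± 0.18 for resistant 2 and -7.69 ± 0.18 for resistant 1 (adjusted p = 7.34e-14 and 8.11e-14). PRTN3 had 6, 9 and 7 counts in resistant 2 and 15, 5 and 21 in resistant 1, against 1228, 1555 and 854 in vehicle, or -7.60 ± 0.40 and -6.50 ± 0.37 on the log2 scale. In resistant 1 the residual was 1.17% of vehicle for PRTN3 and 0.471% for AZU1. MPO counts in resistant 2 all came from 1 library (4, 0 and 0), and so did those in resistant 1 (0, 4 and 0). Its log2 fold changes were -3.92 ± 0.92 for resistant 2 (adjusted p = 0.00127) and -3.74 ± 0.93 for resistant 1 (adjusted p = 0.00204).

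LYZ had 90.4, 98.3 and 91.0 CPM in resistant 2 and 128, 114 and 117 CPM in resistant 1, against 285, 269 and 262 CPM in vehicle. All 3 groups were apart, with log2 fold changes against vehicle of -1.55 ± 0.10 for resistant 2 (adjusted p = 2.60e-09) and -1.19 ± 0.10 for resistant 1 (adjusted p = 5.05e-08). PRSS57 had 155, 100 and 220 counts in resistant 2 and 487, 262 and 273 in resistant 1, against 6, 4 and 6 in vehicle. Its log2 fold changes were 4.60 ± 0.38 for resistant 2 (adjusted p = 4.59e-08) and 5.89 ± 0.38 for resistant 1 (adjusted p = 2.28e-09). LTF had 21, 15 and 18 counts in resistant 2 and 10, 9 and 11 in resistant 1, and 0 in each vehicle library, which is at least 15.1-fold and at least 9.57-fold higher. With only resistant 1 and vehicle in the fit, LTF did not pass the filter.

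**Figure D3:**
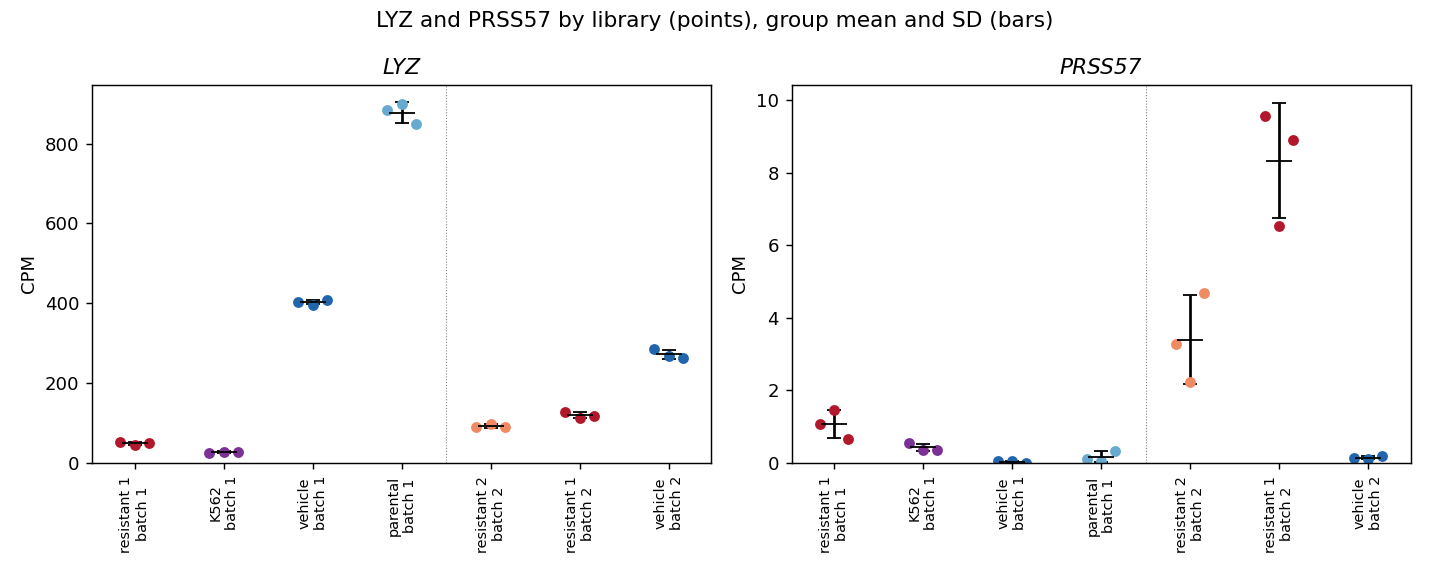
LYZ and PRSS57 (CPM, linear axes) in every library (points), with the mean and SD of each group (bars, n = 3); the dotted line divides the sequencing batches. LYZ is highest in parental libraries (849 to 899 CPM) and PRSS57 in resistant 1 of batch 2 (6.54 to 9.58 CPM).

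The groups labelled resistant of batch 2 differed from each other in 2 of the 10 genes, LYZ and PRSS57, both lower in resistant 2, where 11.9% of all genes tested were called lower and 12.4% higher. For PRSS57 the log2 fold change of resistant 2 over resistant 1 was -1.29 ± 0.26 (edgeR, adjusted p = 0.00278), with 3.40 ± 1.22 CPM in resistant 2 and 8.34 ± 1.59 CPM in resistant 1 (SD, n = 3 each). For LYZ it was -0.36 ± 0.10 (adjusted p = 0.0164), with 93.2 ± 4.38 CPM in resistant 2 and 120 ± 7.72 CPM in resistant 1. The LYZ call was lost with library totals in place of TMM (-0.27, adjusted p = 0.0578). It was also lost without resistant 1 replicate 1 (-0.31, adjusted p = 0.0757), without resistant 2 replicate 1 (-0.34, adjusted p = 0.0673) and without resistant 2 replicate 3 (-0.34, adjusted p = 0.0583). No member was called higher, by edgeR at an adjusted or unadjusted p under 0.05 or by DESeq2. PRTN3 (-1.10 ± 0.55, adjusted p = 0.161) was called only without resistant 1 replicate 2 (-1.50, adjusted p = 0.0426). CTSG, ELANE, RNASE2 and RNASE3 were at or under 3 counts in both groups and allow no fold.

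Resistant 1 over vehicle was sequenced in both batches, so the difference between its fold changes was tested (batch 2 minus batch 1, 15209 genes, of which 15.0% were called higher and 18.2% lower). Of 9 members tested, LYZ was called higher: its log2 fold change was -1.19 in batch 2 and -2.97 in batch 1, a difference of 1.76 ± 0.11 (edgeR, adjusted p = 4.35e-09). Thus LYZ in resistant 1 was 43.9% of vehicle in batch 2 and 12.1% in batch 1. CTSG was called lower, with 0 counts in resistant 1 of batch 2 and 9 over the 3 libraries of batch 1, and its fitted difference depends on the prior count. PRTN3 differed by 1.61 ± 0.64 (adjusted p = 0.0696) and was called with DESeq2 (1.74, adjusted p = 0.0278) and with library totals (1.77, adjusted p = 0.0425). It was also called without resistant 1 replicate 2 of batch 1 (2.10), resistant 1 replicate 2 of batch 2 (2.00) or vehicle replicate 2 of batch 2 (1.85). Whether such differences come from the sequencing batch or from the cells cannot be told apart.

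K562 against parental OCI-AML3 in batch 1 sets the untreated lines side by side and uses none of the libraries labelled resistant. Of 8 members tested, all 8 were lower in K562 and none higher, where 42.5% of 13883 genes were called lower and 42.6% higher; none was called higher at an unadjusted p under 0.05 or by DESeq2 either. Their median log2 fold change was -9.15, against 0.00 over all genes tested. MPO had 0 counts in each K562 library against 20, 23 and 27 in parental, at least 24.8-fold lower. CTSG had 0, 2 and 1 counts in K562 against 20436, 18080 and 18967 in parental, a ratio of parental to K562 of 20351 (exact 95% counting interval 6963 to 98686). AZU1 had 27, 5 and 10 counts in K562 against 3391, 2679 and 3656 in parental, with 1 K562 library well above the other two. LYZ had 25.1, 28.8 and 27.1 CPM in K562 against 883, 899 and 849 CPM in parental, a log2 fold change of -5.02 ± 0.06 (edgeR, adjusted p = 2.18e-24). PRSS57 did not pass the filter; it had 8, 6 and 7 counts in K562 and 2, 1 and 5 in parental libraries, which do not overlap. The 7 members without LYZ, PRSS57 and LTF summed to 0.0608% of the parental level.

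Resistant 1 against K562, both of batch 1, allowed tests of only 3 members, since the rest were too low. LYZ was higher in resistant 1 by 0.87 ± 0.07 on the log2 scale (edgeR, adjusted p = 8.18e-10), with 48.9 ± 3.54 CPM in resistant 1 and 27.0 ± 1.82 CPM in K562 (SD, n = 3 each). PRSS57 was higher by 1.37 ± 0.38 (adjusted p = 0.00341), with 1.07 ± 0.387 CPM in resistant 1 and 0.430 ± 0.103 CPM in K562. Of all 13006 genes tested, 31.3% were called higher and 28.5% lower. AZU1 was not called (-0.09 ± 0.47, adjusted p = 0.878), and its direction turned without K562 replicate 1 (0.88, adjusted p = 0.0909) and without resistant 1 replicate 1 (0.04, adjusted p = 0.957). None of the 3 was called lower, also not at an unadjusted p under 0.05 or by DESeq2. Among those not tested, PRTN3 had 8, 15 and 5 counts in resistant 1 and 4, 2 and 2 in K562, and LTF 5, 3 and 6 in resistant 1 and 1, 0 and 3 in K562. With all 4 groups of batch 1 in one fit, PRTN3 and MPO were also tested and called higher, which makes 4. Both passed the filter there only through the vehicle and parental libraries. The MPO call rests on 3, 1 and 1 counts in resistant 1 and 0 in each K562 library.

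Vehicle against parental OCI-AML3 in batch 1 sets culture in DMSO against no treatment, in libraries whose profiles correlate at 0.985 to 0.987. Here the granule genes moved in both directions. Of 9 tested, CTSG and PRTN3 were higher in vehicle and LYZ, RNASE3, ELANE and RNASE2 lower, where 18.7% of 14505 genes were called higher and 18.3% lower. The median log2 fold change of the 9 was -0.20, against 0.00 over all genes tested. With only these 2 groups in the fit, and so without the libraries labelled resistant, the same counts were called, 2 higher and 4 lower. Monocyte markers summed to 856 to 860 CPM in vehicle and 591 to 659 CPM in parental libraries, with 10 of 14 called higher, and their part was not tested.

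PRTN3 had 149, 152 and 161 CPM in vehicle against 77.9, 74.8 and 80.5 CPM in parental. Every vehicle library was well above every parental one, and the log2 fold change was 0.96 ± 0.06 (edgeR, adjusted p = 7.59e-13). ELANE, 2838 bases from it, had 187, 194 and 198 CPM in vehicle against 224, 221 and 252 CPM in parental. It was thus lower in each vehicle library, by a log2 fold change of -0.29 ± 0.06 (adjusted p = 0.000330). The ratio of PRTN3 to ELANE per kb was 0.741 ± 0.0139 in vehicle and 0.312 ± 0.0134 in parental libraries (SD, n = 3 each), with no overlap. In vehicle of batch 2, which had no parental libraries beside it, this ratio was 0.402 ± 0.0765. There 1 library (0.315) lay within the parental range of batch 1 (0.297 to 0.323). AZU1, on the other side of PRTN3, had 232, 255 and 235 CPM in vehicle against 202, 175 and 249 CPM in parental. Its groups overlapped through parental replicate 3, and it was not called (0.18 ± 0.10, adjusted p = 0.172). Without parental replicate 3 it was called (0.33, adjusted p = 8.01e-06), and also without the filter (0.18, adjusted p = 0.00681).

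CTSG had 1457, 1565 and 1551 CPM in vehicle against 1217, 1181 and 1291 CPM in parental, a log2 fold change of 0.28 ± 0.05 (adjusted p = 0.000199) with no overlap. LYZ had 403, 397 and 408 CPM in vehicle against 883, 899 and 849 CPM in parental, the greatest change among the members called, -1.15 ± 0.05 on the log2 scale (adjusted p = 1.48e-16). RNASE3 had 13.6, 12.3 and 13.2 CPM in vehicle against 18.2, 19.0 and 21.9 CPM in parental (-0.63 ± 0.10, adjusted p = 2.45e-05). RNASE2 changed less, with 176, 185 and 179 CPM in vehicle against 201, 195 and 214 CPM in parental (-0.20 ± 0.05, adjusted p = 0.00292), and neither ribonuclease overlapped between groups. MPO overlapped (-0.02 ± 0.26, adjusted p = 1.00), with 1.50 ± 0.129 CPM in vehicle and 1.51 ± 0.324 CPM in parental. PRSS57, with 1, 1 and 0 counts in vehicle and 2, 1 and 5 in parental, was not called (adjusted p = 0.128), and the ratio of parental to vehicle, 4.52, had an exact 95% counting interval of 0.903 to 43.7.

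**Figure D4:**
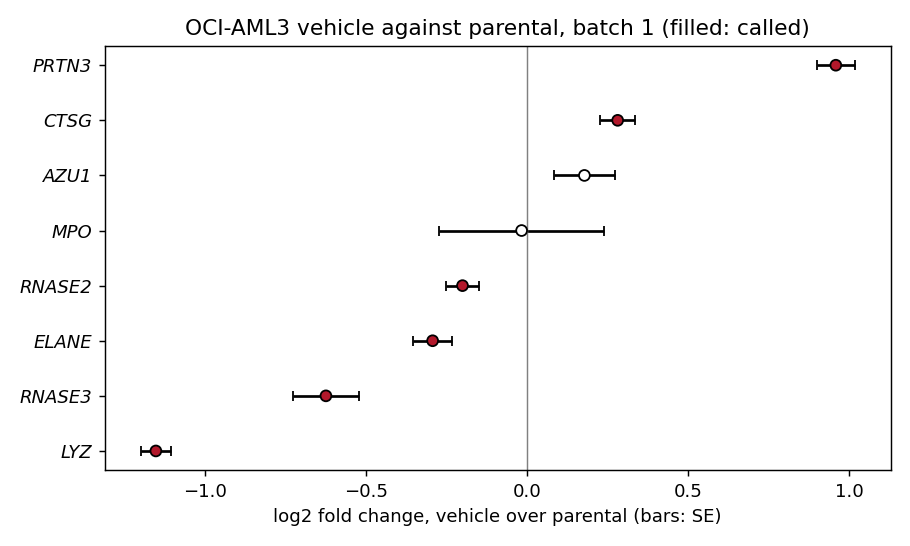
Log2 fold change of vehicle over parental OCI-AML3 in batch 1 with its SE (bars); filled points passed the test and open points did not, and PRSS57 and LTF are left out for their low counts. PRTN3 (0.96) and LYZ (-1.15) lie at opposite ends, and ELANE (-0.29) lies on the other side of zero from its neighbour PRTN3.

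Other genes of granule biology were read from 7 lists. Unless another comparison is named, each count below is of resistant 1 against vehicle in batch 1. In that comparison 44.0% of genes were higher and 42.1% lower, by edgeR's quasi-likelihood test with Benjamini-Hochberg adjustment. Of 8 other azurophil granule genes, 3 were tested, 2 were higher and none lower. CD63, a granule membrane tetraspanin, was 173 CPM in resistant 1 and 139 CPM in vehicle, and GUSB, a lysosomal hydrolase, was 67.9 and 62.0 CPM in those groups, in that order. The defensin genes DEFA1, DEFA3 and DEFA4 had 0 counts in both groups. Their shared stretches were not measured, and how reads that fit more than 1 gene were counted is not stated. These 0 counts therefore need not mean absence of their RNA. Of 14 specific granule genes, 6 were tested, 1 was higher (CRISP3, 62 counts in resistant 1 and 0 in vehicle) and 5 lower. Among the 5 were MMP8, neutrophil collagenase, with 0 counts in resistant 1 and 132 in vehicle, and CYBB, the NADPH oxidase subunit, with 4.21 CPM in resistant 1 and 437 CPM in vehicle. Of 10 gelatinase and secretory granule genes, all 6 tested were lower. MMP9, gelatinase B, had 3 counts in resistant 1 and 12761 in vehicle, and MMP25 had 1 and 618.

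Of 12 genes that mature, sort or store granule proteins, 3 were higher and 8 lower. The increases were small: SRP54, of the signal recognition particle, had 119 CPM in resistant 1 and 84.95 CPM in vehicle, and AP3B1, an adaptor subunit for sorting to lysosome-related organelles, had 142 CPM in resistant 1 and 105 CPM in vehicle. LYST, which controls the size of such organelles, had 8.60 CPM in resistant 1 and 1329 CPM in vehicle. SRGN, the proteoglycan that binds granule proteases, had 146 CPM in resistant 1 and 668 CPM in vehicle. Of 11 protease inhibitor genes, 8 were tested, 1 was higher and 6 lower. SERPINB6, a cytosolic inhibitor of cathepsin G, had 158 CPM in resistant 1 and 87.7 CPM in vehicle, while SERPINA1, the plasma inhibitor of elastase, had 0 counts in resistant 1 and 1053 in vehicle. SERPINB8 had 2 counts in resistant 1 and 9020 in vehicle.

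Of 13 regulators of granulocyte development, 11 were tested and all 11 were lower. CEBPA, a factor required for granulocyte formation, had 0.337 CPM in resistant 1 and 426 CPM in vehicle, a log2 fold change of -10.23 ± 0.11 (adjusted p = 2.93e-31). IRF8, which favours the monocyte fate, had 3 counts in resistant 1 and 60366 in vehicle. RUNX1 and MYB were much less reduced: RUNX1 had 87.4 CPM in resistant 1 and 102 CPM in vehicle, and MYB 240 and 354 CPM. In batch 2, RUNX1 averaged 265 ± 91.7 CPM in resistant 2, 163 ± 15.3 CPM in resistant 1 and 121 ± 10.4 CPM in vehicle (SD). MYB averaged 382, 447 and 453 CPM in those groups, in that order. In batch 2, 8 of the 11 regulators were lower in resistant 2 and 1 higher, where 35.9% of all genes tested were lower and 40.2% higher. In resistant 1 of that batch, 8 were lower and none higher, where 35.8% of all genes tested were lower and 39.9% higher. In vehicle against parental, 6 of the 11 were higher and none lower, where 18.7% of all genes tested were higher and 18.3% lower. Among the 6 was IRF8 (1142 CPM in vehicle and 955 CPM in parental), and CEBPA was not called (426 and 446 CPM in those groups). Of 9 eosinophil and basophil granule genes, 2 were tested: PRG2, the eosinophil major basic protein, was higher with 45.1 CPM in resistant 1 and 0.524 CPM in vehicle, and MS4A2 was lower with 0.978 CPM in resistant 1 and 1.76 CPM in vehicle. PRG2 also had 12.2 CPM in K562.

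The genes whose pattern over the 21 libraries was most like that of the 4 most abundant members were found by Pearson correlation of log2(CPM + 1) among 11942 genes. With 2 kinds of profile among the libraries, and libraries that share groups and depth, many genes correlate highly, so these values are a description. For CTSG they were PHACTR3 (0.9997), PARVG (0.9996) and ECRP (0.9995). PHACTR3 averaged 201 CPM in vehicle and 186 CPM in parental of batch 1 and 161 CPM in vehicle of batch 2, and had 0 counts in the other 4 groups. For ELANE they were GALNT18 (0.9996), UNCX (0.9995) and IRF5 (0.9994), and for AZU1 CALHM2 (0.997), UBE2C (0.997) and IRF5 (0.997). IRF5 averaged 72.3 CPM in vehicle and 80.9 CPM in parental of batch 1 but 31.9 CPM in vehicle of batch 2, and ELANE likewise averaged 193, 232 and 72.8 CPM in those groups, in that order. LYZ had the least close partners, CASK (0.973), GPSM3 (0.970) and FAM168A (0.969). CASK averaged 10.4 CPM in resistant 1 and 7.67 CPM in K562, against 33.4 CPM in vehicle and 52.8 CPM in parental of batch 1.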

How the data were processed

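The authors deposited raw read counts per gene symbol, 1 table per sequencing batch, with no normalization per the file headers, and all values were whole. The submitters' processing notes name hg38 and DESeq2 1.22.1; neither the labels nor the file headers name the annotation or the strand setting of the counting. RNA was prepared with a strand-specific mRNA kit, per the labels' protocols. All columns were matched to samples by the library names in the labels.

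Fits used edgeR 4.0.16 in R 4.3.3: TMM scaling, filterByExpr, robust quasi-likelihood F tests (two-sided) of group means and Benjamini-Hochberg adjustment over all genes tested, with a gene called at an adjusted p under 0.05. One fit held the 3 OCI-AML3 groups of batch 1 and another the 3 groups of batch 2; comparisons with K562 used the 6 libraries concerned, and the difference between batches the 12 libraries of resistant 1 and vehicle. The SE is the log2 fold change divided by the root of F. Where a group has few counts, this SE can be smaller than the counting error. CPM are scaled by TMM within a batch. A fold against a group at 0 is a bound against 3 counts over the group, and with 1 to 3 counts an exact 95% interval is given; both cover counting error only. Lengths, positions and shared 50-base stretches are from GENCODE release 44. The fits were tested on simulated data.

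The members and gene lists were chosen with earlier results of these data known. All 10 members are described. Of each other list, at most 2 called genes that rose most and 2 that fell most in resistant 1 minus vehicle of batch 1 are named. DEFA1, DEFA3, DEFA4, RUNX1 and MYB were added after their values were seen. The 3 most alike genes were taken for the 4 members with the highest group mean. Replicates were not duplicates: chi-square per degree of freedom was 1.81 to 7.18 in batch 1 and 20.8 to 84.5 in the deeper batch 2. Batch 1 replicates thus lay closer to counting error. No source says that replicates were grown apart, so the p-values reflect only library-to-library spread. Whether equal replicate numbers pair libraries was checked by correlating deviations from group means. In batch 2 all 3 pairs were over 0.1 for resistant 1 with vehicle (0.194 to 0.245) and for resistant 2 with resistant 1 (0.159 to 0.390). For resistant 2 with vehicle they were 0.0719, 0.197 and 0.140, each the best match by number. Pairing there was read from the data and not from the labels. The main fits nevertheless held no pairing term, so the values reported are unpaired, and the replicate block was run only as an alternative. The alternatives were DESeq2 1.42.0, library totals without TMM, no filter, other groups in the fit, a replicate block and leaving out each library. The value of 1 monocyte marker is not reported here.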

Additional observations from a re-analysis of the deposited data

Results flagged for a closer look

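In resistant 1 over vehicle, LYZ differed between the sequencing batches by 1.76 on the log2 scale (edgeR, adjusted p = 4.35e-09, interaction test), being less reduced in batch 2. All 3 resistant 1 libraries of batch 2 (114 to 128 CPM) were above all 3 of batch 1 (45.2 to 52.3 CPM), while vehicle was lower in batch 2 (262 to 285 CPM) than in batch 1 (397 to 408 CPM). The difference was 1.70 to 1.81 when single libraries were left out. Depth differed too, and its part was not tested.

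CTSG differed by -4.94 (adjusted p = 0.00695) in the same test. It rests on 0, 5 and 4 counts in resistant 1 of batch 1 and 0, 0 and 0 counts in resistant 1 of batch 2, so the fitted size depends on the prior count and is no bound. The adjusted p was 0.000493 to 0.0362 over the alternatives run.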

How the results depend on the processing

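Of 220 counts of members called over all alternatives, 207 stayed within 1.5 times. In resistant 1 over vehicle of batch 1, the members called higher became 2 without the filter (LTF added). In resistant 1 over K562 they became 4 with all 4 groups in one fit, where PRTN3 and MPO passed the filter only through vehicle and parental libraries. In resistant 1 over vehicle of batch 2 they became 1 with only those 2 groups. In resistant 2 over resistant 1, the members called lower became 1 with library totals and ranged from 1 to 3 when single libraries were left out. In the batch difference, members called higher became 2 with DESeq2 and 2 with library totals, and both directions ranged from 1 to 2 when libraries were left out.

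Of 895 values of single members, 12 changed sign, all of them not called. With all 4 groups MPO in vehicle over parental was 0.011, and leaving out libraries gave -0.16 to 0.15. Leaving out libraries gave -0.49 to 0.88 for AZU1 in resistant 1 over K562, -3.57 to 3.42 for MPO in resistant 2 over resistant 1, and -2.94 to 0.88 for MPO and -3.23 to 1.17 for ELANE in the batch difference. The causes were not tested.

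Library totals without TMM shifted the median of all genes to 0.26 (resistant 1 over vehicle) and 0.35 (resistant 2 over vehicle) in batch 2 and to 0.13 in the batch difference. Under the replicate block 8 members were lower and 2 higher in both comparisons with vehicle of batch 2, and the block changed no call of a member in any comparison. With the limit of 0.1 on each pair, equal numbers paired no batch 1 comparison. Resistant 2 with vehicle missed the limit in 1 pair (0.0719), though each of its pairs correlated best with its own number. Resistant 2 with resistant 1 met the limit, though replicate 1 (0.281) did not correlate best with its own number. Over both batches, 12 of 27 pairs correlated best with their own number. The block result in batch 1 was 8 lower and 1 higher for resistant 1 over vehicle. Levels scaled by library totals moved by over 1 SD in 9 of 70 cases. Depth limits genes at 0 to 3 counts, for which only bounds or wide intervals are given.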

Other observations

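The vehicle libraries of the batches were not compared with a test, since batch and culture cannot be told apart there. The 3 neighbouring genes AZU1, PRTN3 and ELANE had lower values in batch 2: AZU1 averaged 241 ± 12.3 CPM in batch 1 and 83.6 ± 7.38 CPM in batch 2, PRTN3 154 ± 6.43 and 31.4 ± 8.53 CPM, and ELANE 193 ± 5.53 and 72.8 ± 13.9 CPM (SD, n = 3 each). RNASE2 (180 ± 4.38 and 158 ± 6.43 CPM) and RNASE3 (13.0 ± 0.649 and 14.9 ± 1.17 CPM) lay closer. CTSG averaged 1524 ± 58.5 CPM in batch 1 and 1071 ± 68.3 CPM in batch 2. The ratio of CTSG to ELANE per kb was 5.93 ± 0.116 in batch 1 and 11.3 ± 1.69 in batch 2.

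Granule genes of eosinophils and basophils summed to 46.0 to 50.5 CPM in resistant 1, 13.7 to 16.3 CPM in K562 and 1.90 to 2.55 CPM in vehicle of batch 1. In batch 2 they summed to 37.1 to 56.6 CPM in resistant 2, 123 to 174 CPM in resistant 1 and 1.25 to 1.55 CPM in vehicle. Outside vehicle, most of each sum was a single gene, PRG2. It averaged 45.1 CPM in resistant 1 and 12.2 CPM in K562 of batch 1. In batch 2 it averaged 45.2 CPM in resistant 2 and 140 CPM in resistant 1. CPA3 and TPSAB1 had 0 counts in all 7 groups. How reads that fit more than 1 gene were counted is not stated, so a gene at 0 counts need not lack RNA.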
